A study of Mus musculus with 12 samples.

Results

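The 37 genes described here encode protein-folding chaperones and the genes of the unfolded protein response (UPR). They were chosen by name, with no measured value in the rule: every probe whose gene name was a listed symbol or an older form of it was taken. Of the 37 genes, 36 had a probe and all of these 36 passed the filter on low signal, among 18436 genes tested. They carried 71 probes, of which 70 were kept. Hsph1 was found under its older name Hsp110 through its transcript accession. No probe was named for Hspa1b, a near-identical copy of Hspa1a, so Hspa1b was not analysed here and the signal printed for Hspa1a may hold RNA of both.

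The cells were macrophages grown from bone marrow of C57BL6/J and Balb/cAnNCrl mice (C57BL6 and Balb/c below), with no modified allele named. Mice were 8 to 12 weeks old, and each sample was labelled as 2 males and 1 female, with marrow pooled before culture. Marrow cells were cultured with 200 ng/ml human CSF1, the macrophage growth factor, received new medium on day 5 and were replated on day 6. From day 7 each strain was either left without interleukin-4 (IL-4) for 18 h (mock) or given 10 ng/ml mouse IL-4 for 4 h or 18 h. The treatment protocol also mentions the bacterial product LPS, but no sample label names it, so the samples were taken as IL-4 or mock only. The 6 groups held 2 arrays each, from 2 independent experiments with different littermates, and the 4 h cells had no mock of their own time.

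Chaperones bind unfolded proteins and help them reach their native shape. In the cytosol, HSP70, HSP90 and their J-domain co-chaperones share this work and are induced through Hsf1 when unfolded protein builds up. In the endoplasmic reticulum (ER), BiP, GRP94, the lectin chaperones and the protein disulfide isomerases fold secreted and membrane proteins. When the ER is overloaded, the sensors Ire1, Atf6 and Perk switch on the UPR, through spliced Xbp1, cleaved Atf6 and Atf4. Macrophages given IL-4 turn to a state often called alternative activation, in which they make secreted proteins such as Retnla.

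Promoter windows of the listed genes were read for short elements known from these pathways. RefSeq windows (GRCm38.p6) of 250 bases before and 50 bases from the start on were given for 30 of the 37 genes. Atf6, Hsf1, Hsp90aa1, Hsp90ab1, Hspa8, Hspa9 and Hyou1 had none. The ER stress element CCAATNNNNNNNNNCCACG, searched on both strands like all motifs here, was in the windows of 7 members and in 0.119% of all 32851 windows. These are its occurrences, written 5′ to 3′ on the strand of the gene with the element in capitals and 6 flanking bases; elements that begin with CGTGG lie on the opposite strand.
Hspa5: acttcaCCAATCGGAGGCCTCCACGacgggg
Hsp90b1, distal: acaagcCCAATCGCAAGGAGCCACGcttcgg
Hsp90b1, proximal: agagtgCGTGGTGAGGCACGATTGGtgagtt
Calr: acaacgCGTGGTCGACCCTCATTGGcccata
Canx: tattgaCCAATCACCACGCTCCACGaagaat
Pdia6: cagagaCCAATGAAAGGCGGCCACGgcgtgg
Dnajc3: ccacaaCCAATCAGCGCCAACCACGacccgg
Creld2: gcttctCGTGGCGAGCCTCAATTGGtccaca

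The printed stretches lie at chr2:34772019-34772049 (plus strand) for Hspa5, chr10:86705632-86705662 and chr10:86705527-86705557 (minus) for Hsp90b1, chr8:84847069-84847099 (minus) for Calr and chr11:50325794-50325824 (minus) for Canx. Those of Pdia6, Dnajc3 and Creld2 lie at chr12:17266485-17266515, chr14:118937821-118937851 and chr15:88819514-88819544, all on the plus strand. The elements began between 65 bases (Hspa5) and 212 bases (Hsp90b1) before the start. The related form ATTGGNCCACG was in 2 members, Herpud1 and Dnajb11, and in 0.0365% of all windows. The bases TGACGTGG, the core of the UPR element, were in the window of no member and in 0.676% of all windows. The C/EBP-ATF element TGATGNAA, through which Atf4 acts, was in Trib3 and Herpud1 and in 3.97% of all windows.

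The heat shock element was searched as GAANNTTC, which reads the same on both strands and which 7.86% of all windows held. It was in 8 members, all of them cytosolic or mitochondrial chaperones or their partners. The sites show that Hspd1 and Hspe1 share a single element and that Hspa1a and Hspa1b carry the same bases.
Hspe1, on chr1:55088058-55088077 (plus): gttctaGAACCTTCcggaag
Hspd1, the same bases from the minus strand: cttccgGAAGGTTCtagaac
Hspa1a, on chr17:34972247-34972266 (minus): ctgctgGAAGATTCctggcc
Hspa1b, on chr17:34959329-34959348 (minus): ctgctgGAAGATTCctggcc
Dnaja1, on chr4:40722338-40722357 (plus): cctctaGAAAATTCtacgag
Hspb1, on chr5:135887796-135887815 (plus): acaagaGAAGTTTCcagatg
Hsph1, on chr5:149636282-149636301 (minus): attctgGAAAGTTCtcctca

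A further Hspb1 site and a Bag3 site are not printed. The Hsph1 site lay after the start in both of its windows. For 12 members with a window, among them Pdia4, P4hb, Pdia3, Sdf2l1 and Xbp1, none of these letters was in the window. A match is a run of letters and not a measured binding site.

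Signals below are log2 values after subtraction of each array's 75th percentile, so that 0 is the 75th percentile of that array. Between 54.9% and 69.7% of the 43379 spots of an array were well above background, and replicates correlated at 0.974 to 0.989. Every tested member was well above background on all 12 arrays except Hspb1, the small heat shock protein, which was so on 9. No member was saturated on any array. The number of arrays limits the precision, and since each sample pooled animals, p-values measure the spread between these cultures. Genes known to follow IL-4 were higher in both strains. Socs1, a feedback inhibitor of the IL-4 signal, was higher by 5.22 ± 0.20 (SE, n = 2 against 2) in C57BL6 and 4.61 ± 0.20 in Balb/c at 4 h. Arg1, an arginase of IL-4-primed macrophages, was at least 3320-fold higher in C57BL6 and at least 2426-fold higher in Balb/c at 18 h, as measured against the lowest signal called well above background. Cish was higher by 6.40 and 5.95 at 4 h, and Retnla by 12.42 in Balb/c, where 1 of the 2 mock arrays was above background, and at least 24779-fold in C57BL6 at 18 h. All 8 macrophage markers were above background on every array, with a summed signal from 538 to 791 times the 75th percentile. In RNA from whole cultures, more cells of a type and more RNA per cell cannot be told apart.

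**Figure D1:**
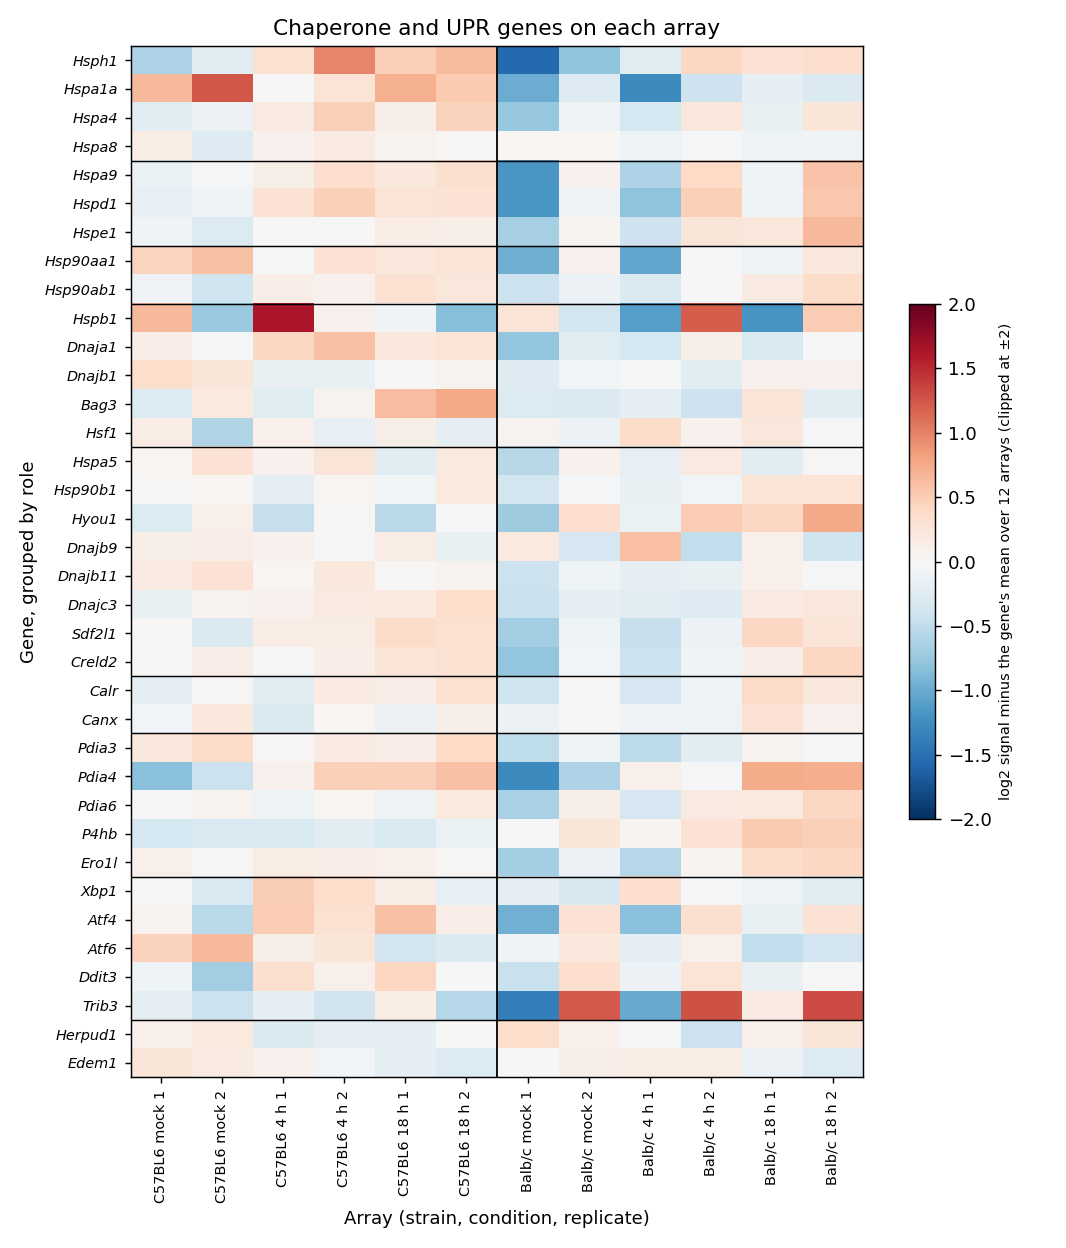
Log2 signal of the 36 tested members (rows, grouped by role) on the 12 arrays (columns), minus each gene's mean over the arrays, with colours clipped at 2. Pdia4 and Hsph1 turn from blue in mock to red at 18 h in both strains, Atf6 turns the other way, and the Balb/c mock 1 column is blue for most members.

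The first comparison asked which members changed within the first 4 h of IL-4. Over both strains (4 mock against 4 treated arrays), Hsph1 and Pdia4 rose and no member fell. The count was 2 of 36 members called, both higher, against 6.73% of all genes called, 2.93% higher and 3.8% lower. Calls are adjusted p-values below 0.05 from limma with Benjamini-Hochberg adjustment over all 18436 genes.

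Hsph1 encodes HSP110, a cytosolic chaperone that exchanges the nucleotide of HSP70. Its log2 signal was 3.12 and 3.50 in C57BL6 mock, 4.04 and 4.72 at 4 h, and 4.21 and 4.37 at 18 h. The Balb/c arrays gave 2.17 and 2.92 in mock, 3.50 and 4.15 at 4 h, and 4.03 and 4.07 at 18 h. Within each strain every treated array lay above both mock arrays. At 4 h over both strains Hsph1 was higher by 1.17 ± 0.24 (SE), or 2.25-fold (limma adjusted p = 0.026). The call was lost without C57BL6 mock 1, C57BL6 mock 2, C57BL6 4 h 2, Balb/c mock 1 or Balb/c 4 h 2, with log2 changes from 0.98 to 1.36 over all 8 single omissions and a highest adjusted p of 0.0986. Normexp background correction and a fit without the background filter also ended it (0.159 and 0.0535). Within slides the difference was 0.92 on slide 2 and 1.21 on slide 3 in C57BL6, and 0.95 on slide 1 in Balb/c.

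Pdia4 encodes ERp72, a protein disulfide isomerase of the ER. It stood at 2.56 and 2.96 in C57BL6 mock, 3.49 and 3.86 at 4 h, and 3.87 and 3.98 at 18 h. For Balb/c the readings were 2.12 and 2.77 in mock, 3.49 and 3.36 at 4 h, and 4.14 and 4.12 at 18 h. No treated array of either strain overlapped the mock arrays. The rise at 4 h was 0.95 ± 0.18, or 1.93-fold (limma adjusted p = 0.0178), with 0.93 and 0.90 within slides 2 and 3 in C57BL6 and 1.05 within slide 1 in Balb/c. Without C57BL6 mock 1, C57BL6 4 h 2 or Balb/c 4 h 1 the adjusted p was 0.0554, 0.0796 and 0.0516, and with median scaling or normexp correction it was 0.0609 and 0.163.

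Within a strain no member was called at 4 h by limma: 0 of 36 in C57BL6, against 3.22% of all genes, and 0 of 36 in Balb/c, against 1.43%. At an unadjusted p below 0.05 there were 4 members in C57BL6, against 2950 of 18436 genes. In Balb/c there were 3 members, against 1864 of 18436 genes. Hsph1 had the largest uncalled differences, 1.07 ± 0.34 in C57BL6 (limma adjusted p = 0.168) and 1.27 ± 0.34 in Balb/c (adjusted p = 0.155).

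Replicate numbers were taken as pairs of arrays within a strain, which the labels do not state outright. A fit with the replicate as a block called more genes. With the block, 8 members were called at 4 h over both strains, against 23.2% of all genes. These were Hsph1, Pdia4, Hspa4, Hspd1, Dnaja1 and Xbp1 on the higher side and Atf6 and Herpud1 on the lower. In C57BL6 the block called 5 members (Hsph1, Pdia4, Hspa4 and Xbp1 higher, Atf6 lower) against 16.6% of all genes. In Balb/c it called Hsph1 alone, against 7.28%.

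Xbp1 encodes the transcription factor that Ire1 activates by splicing, a step that these probes do not read. It stood at 2.80 and 2.47 in C57BL6 mock, 3.26 and 3.13 at 4 h, and 2.92 and 2.60 at 18 h. The Balb/c arrays read 2.57 and 2.46, then 3.11 and 2.73, then 2.68 and 2.54. In both strains the 4 h arrays lay above the mock arrays and the 18 h arrays overlapped them. The 4 h difference over both strains was 0.48 ± 0.14 and did not pass (limma adjusted p = 0.094), though it did with the block (0.0104) and narrowly with quantile scaling (0.52, adjusted p = 0.0498). That between 18 h and 4 h was -0.37 ± 0.14 (0.232, and 0.0308 with the block).

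Herpud1, an ER membrane protein that helps degrade misfolded proteins, was the member of its role group with the lowest 4 h value, -0.42 ± 0.13 over both strains (limma adjusted p = 0.101, 0.0313 with the block). It read 3.43 and 3.51 in C57BL6 mock against 3.04 and 3.14 at 4 h, and 3.67 and 3.43 in Balb/c mock against 3.28 and 2.91. By 18 h its readings were 3.14 and 3.32 in C57BL6 and 3.43 and 3.56 in Balb/c.

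**Figure D2:**
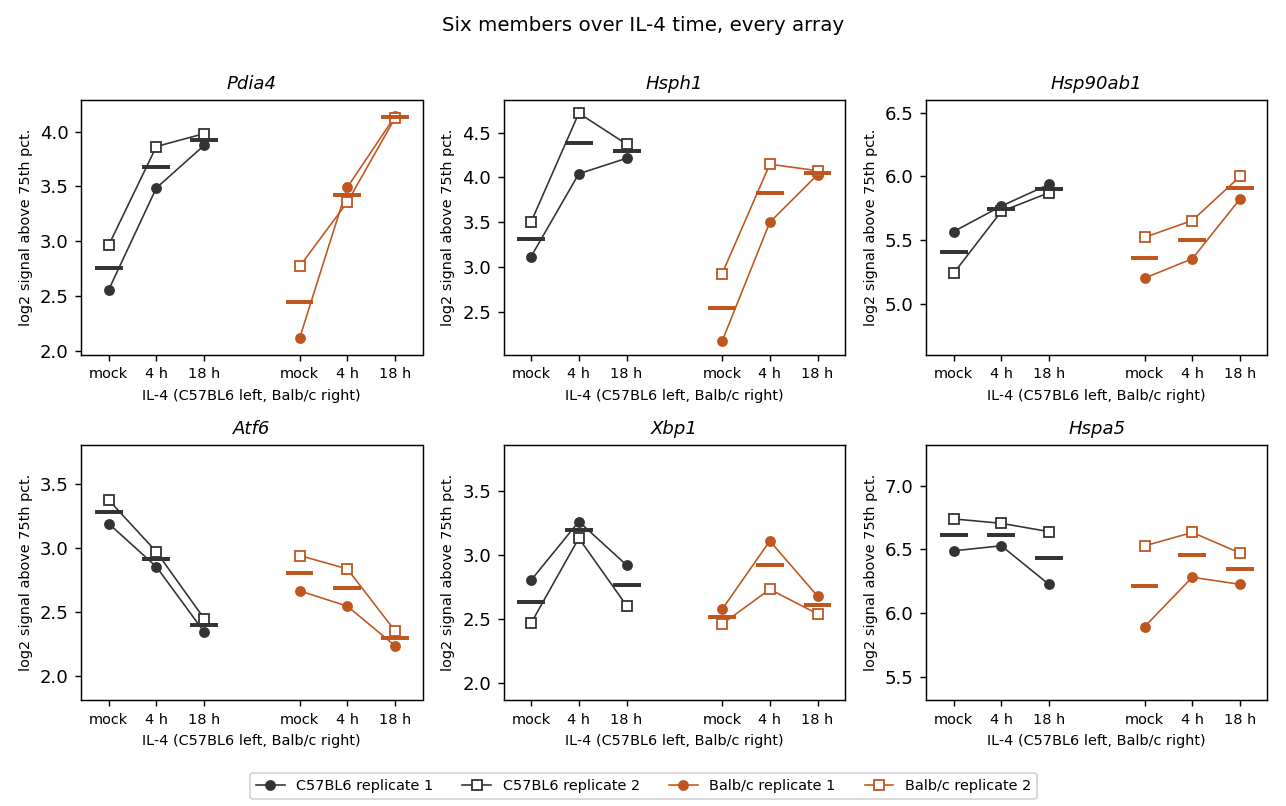
Log2 signal above the array's 75th percentile for 6 members on every array, by IL-4 time, with C57BL6 in black and Balb/c in orange. Thin lines join arrays of the same replicate number and thick bars are group means. Pdia4 and Hsph1 lie above the mock arrays of the same strain on every treated array, Atf6 lies lower at 18 h, Xbp1 is highest at 4 h, and the Hspa5 arrays overlap between the conditions.

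The next comparison set 18 h of IL-4 against mock. Over both strains Pdia4, Hsph1 and Hsp90ab1 rose and Atf6 fell. These were 4 of 36 members called, against 9.36% of all genes, and the 3 higher members compare with 3.49% of all genes and the 1 lower with 5.87%. The share of members called, 11.1%, was near that of all genes.

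Pdia4 was 1.43 ± 0.18 higher, or 2.69-fold, over both strains (limma adjusted p = 0.0019), and it passed under every omission of 1 array. Without the block it was the only member called in both strains: 1.17 ± 0.25 in C57BL6 (adjusted p = 0.0415) and 1.69 ± 0.25 in Balb/c (0.00939). The C57BL6 call was lost without any of its 4 arrays (adjusted p from 0.0907 to 0.23), with slide as a block (0.0826), and with median scaling, normexp correction, no background filter, the deposited ratios or a fit of only the arrays compared (0.0501 to 0.125). The Balb/c call was lost without either of its 18 h arrays (0.0651 and 0.0641), with normexp correction (0.0633) and in a fit of only the arrays compared (0.171). Within slide 3 the C57BL6 difference was 0.97, and within slide 1 that of Balb/c was 1.70.

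Hsph1 was 1.24 ± 0.24 higher at 18 h, or 2.37-fold (limma adjusted p = 0.0154), with 0.98 ± 0.34 in C57BL6 and 1.50 ± 0.34 in Balb/c (adjusted p = 0.18 and 0.0543). Without C57BL6 mock 1 or any of the 4 arrays at 18 h the adjusted p over both strains lay between 0.0514 and 0.0645. Within slides the differences were 0.79 in C57BL6 and 1.48 in Balb/c.

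Hsp90ab1 encodes HSP90β, the constitutive cytosolic HSP90. Its signal was 5.57 and 5.24 in C57BL6 mock, 5.77 and 5.73 at 4 h and 5.94 and 5.87 at 18 h. The Balb/c signal was 5.20 and 5.52, then 5.35 and 5.65, then 5.82 and 6.00. All 4 arrays at 18 h lay above all 4 mock arrays. The difference of 0.53 ± 0.13, or 1.44-fold, passed narrowly (limma adjusted p = 0.0482), and it no longer did with slide as a block (0.0581), under quantile or median scaling (0.0794 and 0.0866), with normexp correction (0.102), without the background filter (0.12) or in 7 of the 8 fits without an array, all but that without Balb/c mock 2. In a fit of every kept probe its second probe read 0.65 ± 0.17 and passed as well. Hsp90aa1, the stress-inducible HSP90α, differed by 0.12 ± 0.29 and was not called.

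Atf6 encodes an ER-bound transcription factor that is cleaved during ER stress. It read 3.19 and 3.38 in C57BL6 mock, 2.85 and 2.97 at 4 h and 2.34 and 2.45 at 18 h. It read 2.66 and 2.94 in Balb/c mock, 2.54 and 2.84 at 4 h and 2.23 and 2.35 at 18 h. Every 18 h array was below every mock and every 4 h array. Atf6 fell by 0.70 on the log2 scale (SE 0.12, limma adjusted p = 0.00977), and each of the 8 fits without an array called it, while normexp correction and the mean of its probes did not (0.202 and 0.08). The C57BL6 value was -0.89 ± 0.17 (adjusted p = 0.0279), a call lost without any of its 4 arrays and under quantile or median scaling, normexp correction, no background filter, probe means or a fit of only the arrays compared (adjusted p from 0.0518 to 0.273). The Balb/c value was -0.51 ± 0.17 and was not called (0.2). A second Atf6 probe, also above background on all arrays, read -0.40 ± 0.20 and was not called (0.307).

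Per strain, limma called 2 of 36 members in C57BL6 at 18 h (Pdia4 higher, Atf6 lower) against 4.28% of all genes, and 1 of 36 in Balb/c (Pdia4) against 3.73%. With the replicate block the counts were 7 in C57BL6, against 17.3% of all genes, and 12 in Balb/c, against 15.1%. Over both strains it was 13, or 36.1% of the members, against 24.9% of all genes. Of the members called with the block in a strain, 5 were called in both: Pdia4, Hsph1, Hspa4, Hsp90ab1 and Atf6. The share of all genes called in both strains with the block was not computed. Without the block 3 of the 8 macrophage markers were called at 18 h over both strains, against 9.36% of all genes. Of the 6 tested neutrophil and precursor markers 1 was called. The summed macrophage signal was 538 to 629 at 18 h against 636 to 791 in mock. The part of that shift in the values of the members was not tested.

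Among the ER luminal chaperones and co-chaperones 0 of 8 members were called by limma at 18 h over both strains, against 9.36% of all genes. Hspa5, which encodes BiP, the main HSP70 of the ER and a standard UPR reporter, read 6.49 and 6.74 in C57BL6 mock, 6.53 and 6.70 at 4 h and 6.22 and 6.64 at 18 h. In Balb/c it read 5.89 and 6.53, 6.28 and 6.63, and 6.23 and 6.47. Treated and mock arrays overlapped in both strains, and the 18 h difference was -0.02 ± 0.18. Hsp90b1, which encodes the ER HSP90 called GRP94, differed by 0.25 ± 0.12 and Dnajb9, an ER J-domain protein and Ire1-Xbp1 target, by -0.10 ± 0.25.

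The highest values in that group were those of Sdf2l1, a partner of ER J-domain proteins, and of Creld2 and Dnajc3. Sdf2l1 read 4.29 and 3.98 in C57BL6 mock against 4.64 and 4.58 at 18 h, and 3.58 and 4.17 in Balb/c mock against 4.69 and 4.53. The arrays of mock and 18 h did not overlap, and the difference was 0.60 ± 0.16 (limma adjusted p = 0.0573). Dnajc3, which encodes the ER co-chaperone p58IPK, had 0.42 ± 0.11 (0.0519) and Creld2, an ER stress-inducible secretory protein, had 0.45 ± 0.18 (0.185). With the block these 3 genes were called (adjusted p = 0.0265, 0.0116 and 0.0207).

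Of the lectin chaperones, which hold glycoproteins in the ER, Calr differed by 0.39 ± 0.15 and Canx by 0.08 ± 0.13 at 18 h over both strains, neither called. A second Calr probe read 0.69 ± 0.14 and passed (limma adjusted p = 0.0178), so the call for Calr depends on the probe. Among the disulfide enzymes 1 of 5 was called at 18 h, Pdia4, against 9.36% of all genes. Pdia3, Pdia6, P4hb and Ero1l had 0.15 to 0.39. Ero1l, the oxidase that reoxidises protein disulfide isomerase, read 0.88 and 0.80 in C57BL6 mock and 0.87 and 0.80 at 18 h. Its Balb/c arrays read 0.09 and 0.65 in mock and 1.14 and 1.18 at 18 h, a difference of 0.79 ± 0.24 that limma called only with the block (adjusted p = 0.157, 0.0276 with the block). Its second probe read 0.30 in C57BL6 and 0.28 in Balb/c at 18 h, so the contrast between the strains was not seen in both probes.

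Of the 7 members whose window held the ER stress element, none was called at 18 h over both strains, against 9.36% of all genes. With the block 2 of them were called (Dnajc3 and Creld2), against 24.9%, and the second Calr probe passed as given above. Their differences were -0.02 for Hspa5, 0.08 for Canx, 0.25 for Hsp90b1, 0.30 for Pdia6, 0.39 for Calr, 0.42 for Dnajc3 and 0.45 for Creld2.

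The 3 mitochondrial chaperones had nearly the same value at 18 h over both strains: 0.57 ± 0.32 for Hspa9 (mortalin), 0.63 ± 0.33 for Hspd1 (HSP60) and 0.53 ± 0.21 for Hspe1 (HSP10, the lid of HSP60). None was called by limma (adjusted p = 0.378, 0.332 and 0.183), and all 3 were with the block (0.0143, 0.0158 and 0.00687). Without Balb/c mock 1 the values were 0.25, 0.35 and 0.35, and the slide block gave 0.31, 0.36 and 0.42, with no call. Hspd1 read 4.65 and 4.72 in C57BL6 mock, 5.11 and 5.29 at 4 h and 5.08 and 5.09 at 18 h. In Balb/c it read 3.64 and 4.75, 4.00 and 5.28, and 4.75 and 5.35, so that replicate 1 was below replicate 2 in every condition. Hspe1, which shares the printed heat shock element with Hspd1, read 2.91 and 2.71, 2.99 and 3.00, and 3.14 and 3.11 in C57BL6. Its Balb/c readings were 2.33 and 3.04, 2.57 and 3.22, and 3.21 and 3.64. The Balb/c mock arrays of Hspd1 lay farther apart than its 18 h difference of 0.85 in that strain.

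None of the other cytosolic members was called at 4 h or 18 h over both strains, against 6.73% and 9.36% of all genes. Hspa4, a relative of HSP110, had 0.43 ± 0.20 at 4 h and 0.47 ± 0.20 at 18 h, called only with the block (adjusted p = 0.0156 and 0.0105). Its other probes read -0.02, 0.62 and 0.57 at 4 h and 0.16, 0.42 and 0.64 at 18 h. Hspa8, the constitutive HSP70, had 0.03 ± 0.11 and -0.02 ± 0.11. Hspa1a, the inducible HSP70, had -0.52 ± 0.25 at 4 h and 0.03 ± 0.25 at 18 h, neither called. Bag3, a co-chaperone of HSP70 in autophagy, had -0.03 ± 0.16 at 4 h and 0.51 ± 0.16 at 18 h (limma adjusted p = 0.105), and its second probe read 0.71 ± 0.13 at 18 h and passed (0.0126). Dnajb1, the J-domain partner of HSP70 in heat shock, had -0.21 and -0.01, and Hsf1, the regulator of the heat shock genes, 0.22 and 0.15. Hspb1 was near background and its SE of 0.65 leaves its values of 0.50 and -0.35 without an order.

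Of the Atf4 branch no member was called at 4 h or 18 h over both strains, against 6.73% and 9.36% of all genes. Atf4 itself had 0.36 ± 0.35 at 4 h and 0.50 ± 0.35 at 18 h. Ddit3, the stress factor CHOP, had 0.37 ± 0.22 and 0.30 ± 0.22, and Trib3, a pseudokinase that CHOP induces, had 0.11 ± 0.66 and 0.45 ± 0.66. The wide error of Trib3 came with its Balb/c arrays, which read -0.31, 0.04 and 1.21 in replicate 1 and 2.28, 2.32 and 2.36 in replicate 2. The C57BL6 arrays of Trib3 lay between 0.48 and 1.20. Edem1, which sends misfolded glycoproteins to degradation, had -0.34 ± 0.10 at 18 h (limma adjusted p = 0.0747), while its other probes read 0.15 and -0.05, so that its direction depended on the probe.

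**Figure D3:**
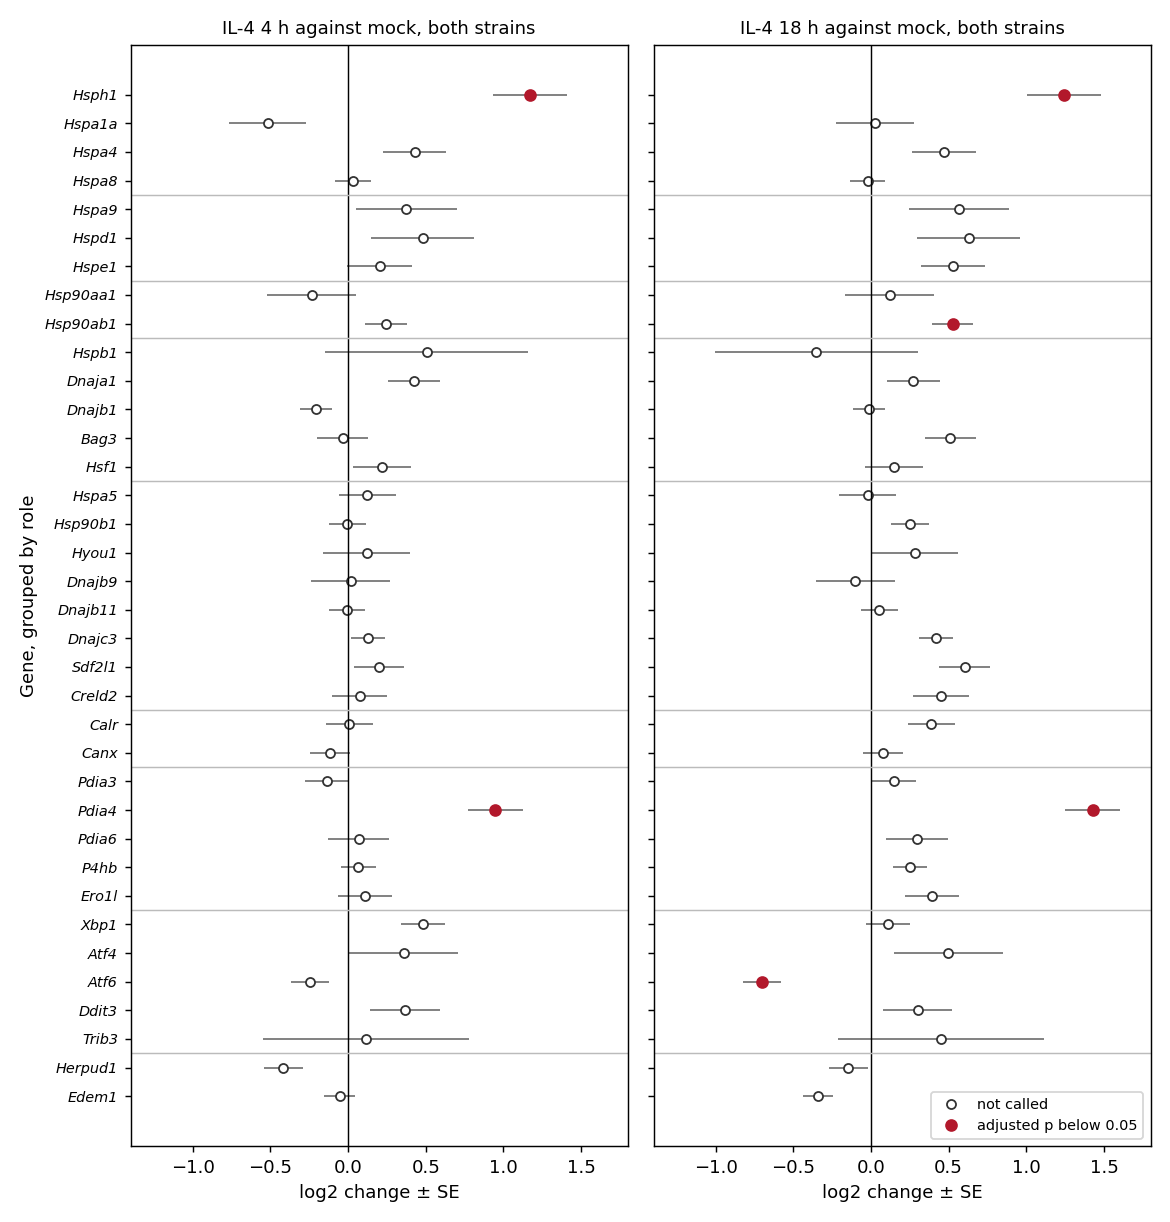
Log2 change of the 36 tested members after 4 h (left) and 18 h (right) of IL-4 against mock over both strains, with the standard error from the fit, grouped by role. Filled points passed an adjusted p below 0.05: 2 members at 4 h and 4 at 18 h, of which Atf6 alone lies below 0.

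Read as a list, the members were mostly above mock. At 18 h over both strains 28 of 36 had a positive value and the median was 0.28, against a median of -0.0018 and 49.8% positive over all genes. At 4 h the numbers were 25 of 36 and 0.11, against 0.01 and 51.4%. In Balb/c at 18 h the median was 0.40 (29 of 36 positive), and in C57BL6 it was 0.11 (22 of 36). These medians moved with single Balb/c mock arrays. Without Balb/c mock 1 the median at 18 h was 0.14 over both strains and 0.17 in Balb/c, and without Balb/c mock 2 it was 0.45 and 0.64. The 4 h median over both strains was -0.01 without Balb/c mock 1 and 0.25 without Balb/c mock 2. The 4 h and 18 h values share the mock arrays, and these counts are a description with no test of the list. With normexp background correction in place of the scanner's own, the median of all genes at 18 h moved to -0.37. The members' median then stood at 0.55, which is 0.93 above that of all genes, compared with 0.28 above it in the main scaling. With that correction the members' median at 18 h was 0.50 in C57BL6 and 0.66 in Balb/c, against -0.45 and -0.31 over all genes. At 4 h it was 0.17 in C57BL6, against -0.33 over all genes. In Balb/c at 4 h it was 0.08, below the 0.15 of all genes, and 13 of 36 members lay above that value. The main scaling gave 0.12 against 0.02 there.

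No member differed between 18 h and 4 h of IL-4 over both strains by limma (0 of 36, against 3.72% of all genes). At an unadjusted p below 0.05 there were 8 members, against 3072 of 18436 genes. Atf6 was closest, at -0.46 ± 0.12 (adjusted p = 0.0893), and Bag3 had the highest value, 0.55 ± 0.16 (0.127). With the block 7 members were called, against 16.8% of all genes: Bag3, Hspe1, Creld2 and Dnajc3 were higher at 18 h, and Atf6, Xbp1 and Edem1 were lower.

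The next question was whether the strains differed. Over all conditions (6 Balb/c against 6 C57BL6 arrays), P4hb was higher in Balb/c, while Hspa1a, Dnaja1 and Pdia3 were lower. That was 4 of 36 members called, or 11.1%, against 17.6% of all genes, with 1 member higher against 7.41% and 3 lower against 10.2%. With the replicate number as a random block limma called none of the members, against 5.87% of all genes. With slide as a block it called none either, against 5.68%. Slide 1 held only Balb/c arrays and slide 3 only C57BL6 arrays, so strain and slide can be told apart only through slide 2, which held both. The calls also depended on the probe. In a fit of every kept probe, other probes of 5 uncalled members passed between the strains: Dnajc3 (-0.88), Edem1 (-0.61 and -0.39), Hspa4 (-0.37), Pdia6 (0.75) and Hyou1 (-2.55, a probe above background on 5 of 12 arrays), with limma adjusted p from 0.000291 to 0.0345.

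P4hb encodes protein disulfide isomerase itself. Its C57BL6 arrays read 4.85 and 4.89 in mock, 4.89 and 4.99 at 4 h and 4.90 and 5.07 at 18 h. Its Balb/c arrays read 5.20 and 5.44, 5.26 and 5.49, and 5.73 and 5.68. Every Balb/c array was above every C57BL6 array. The difference was 0.53 ± 0.09, or 1.45-fold (limma adjusted p = 0.00588), and it held in each of the 12 fits without an array. The adjusted p was 0.0731 with the replicate block and 0.0969 with slide as a block, where the value was 0.64, and 0.329 with normexp correction. On slide 2, which held a 4 h array of each strain, the difference was 0.60.

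Hspa1a read 2.08 and 2.67 in C57BL6 mock, 1.43 and 1.70 at 4 h and 2.13 and 1.95 at 18 h. In Balb/c it read 0.44 and 1.17, 0.15 and 1.01, and 1.25 and 1.14, so the strains did not overlap. It was lower in Balb/c by a log2 difference of -1.13 ± 0.20 (limma adjusted p = 0.00714), and the other 3 Hspa1a probes passed as well, with -0.89 to -1.04. The adjusted p was 0.125 with the replicate block and 0.394 with slide as a block and 0.053 with normexp correction, and under the slide block the value was -0.59. Within slide 2 it was -0.42.

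Dnaja1, a J-domain partner of HSP70, was lower in Balb/c by -0.53 ± 0.14 (limma adjusted p = 0.0339), with -0.27 under the slide block (0.572) and -0.28 within slide 2. Its C57BL6 arrays lay between 4.12 and 4.73 and its Balb/c arrays between 3.36 and 4.27. Pdia3, the disulfide isomerase that works with the lectin chaperones, was lower by -0.44 ± 0.12 (0.0359), with -0.27 under the slide block (0.558) and -0.25 within slide 2. Its C57BL6 arrays lay between 4.85 and 5.24 and its Balb/c arrays between 4.31 and 4.90. Both genes overlapped between the strains. In fits without 1 array Dnaja1 passed in 3 of 12 and Pdia3 in 2 of 12, with adjusted p up to 0.095 and 0.102. Neither passed under quantile or median scaling, normexp correction or no background filter (0.0504 to 0.381).

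**Figure D4:**
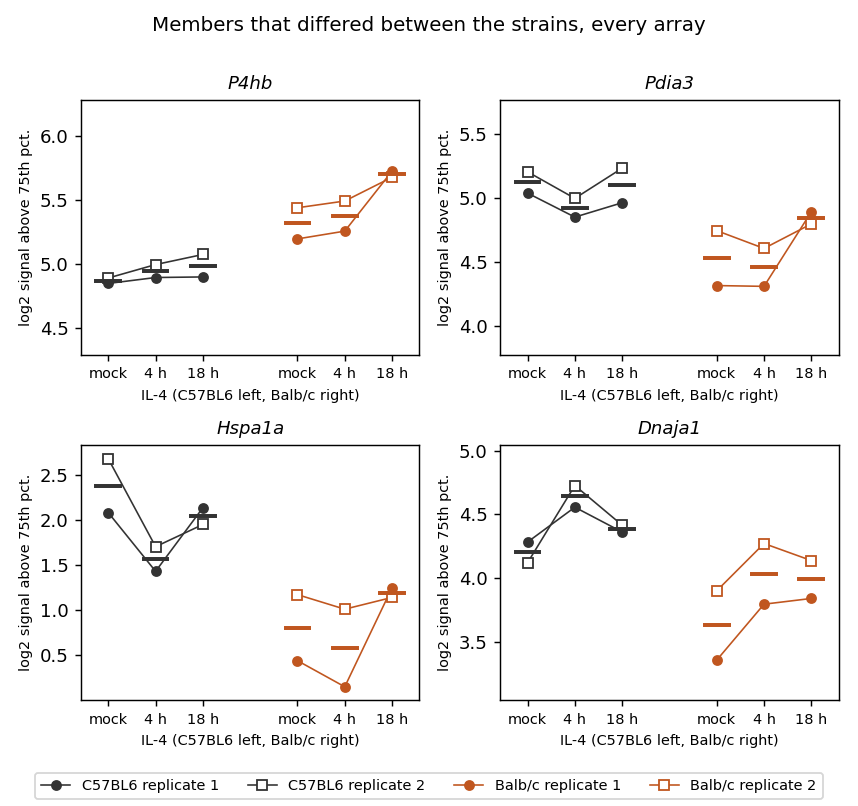
Log2 signal above the array's 75th percentile for the 4 members called between the strains, on every array by condition, with C57BL6 in black and Balb/c in orange. P4hb and Hspa1a do not overlap between the strains, and Pdia3 and Dnaja1 do.

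Markers of other cells differed between the strains in the same comparison, in which 17.6% of all genes were called. Of the neutrophil and precursor markers 5 of 6 tested were called, and their summed signal was 1.30 to 2.85 in C57BL6 and 0.40 to 0.82 in Balb/c, in units of the array's 75th percentile. Retnlg of that list was above background on no array. Of the B cell markers 2 of 5 were called, with sums from 1.04 to 3.16 in C57BL6 and from 0.94 to 1.89 in Balb/c. Of the macrophage markers 1 of 8 was called. Of the 4 plasma cell markers none was called by limma in any comparison, with sums from 0.84 to 3.16. The part of these cells in the strain differences was not tested.

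The replicates of Balb/c stood apart in many members. In Balb/c mock 29 of 36 members were higher in replicate 2 than in replicate 1, with a median gap of 0.49, while 41.6% of all genes were higher there and their median gap was -0.10. In Balb/c at 4 h it was 27 of 36 with a median of 0.32, against 54.4% and 0.07 over all genes. In Balb/c at 18 h it was 23 of 36 with 0.05, against 56.3% and 0.06. In C57BL6 mock, 4 h and 18 h it was 22, 26 and 22 of 36, with medians of 0.08, 0.13 and 0.05. The shares of all genes there were 46.9%, 47.9% and 45.3%, with medians of -0.03, -0.02 and -0.04. Replicate 2 was higher in all 3 conditions for 20 of 36 members in C57BL6 and 18 of 36 in Balb/c, a share not counted over all genes. In Balb/c mock 6 members were higher by 1 or more in replicate 2: Trib3 (2.59), Hspd1, Hspa9, Atf4, Hsp90aa1 and Hyou1. In C57BL6 mock none was, while Hspb1, near background, had a gap of -1.39. The share of all genes with gaps of this size was not counted. Without Balb/c mock 1 the members' median at 4 h in Balb/c was -0.10, without Balb/c mock 2 it was 0.32, and with all arrays it was 0.12.

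**Figure D5:**
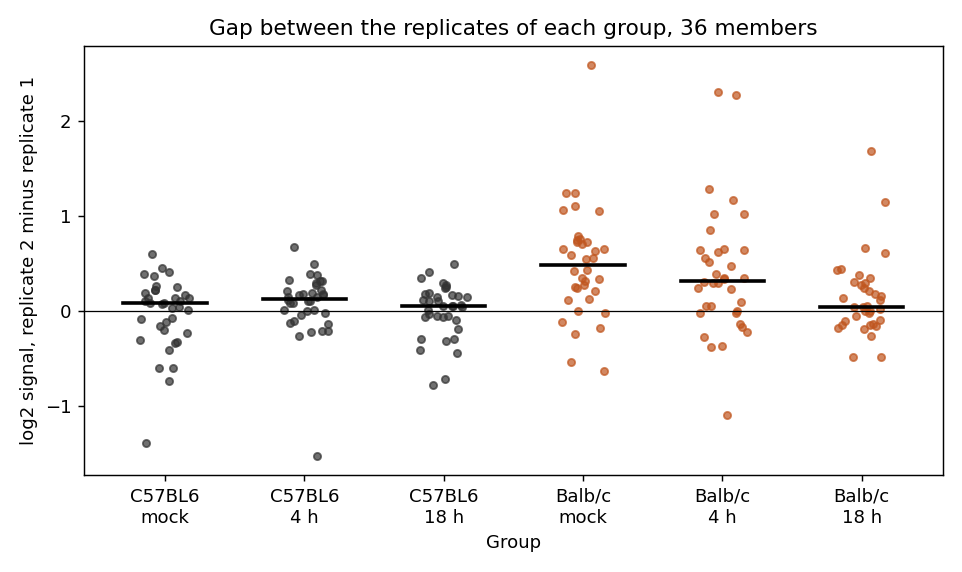
Difference in log2 signal between replicate 2 and replicate 1 of each group, 1 point for each of the 36 members, with the median as a bar. The medians are 0.05 to 0.13 in C57BL6 and 0.49, 0.32 and 0.05 in Balb/c mock, 4 h and 18 h.

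Whether the strains responded differently to IL-4 was tested as an interaction. No member passed by limma at 4 h or at 18 h, and neither did any of the 18436 genes (0% called in both), with 446 and 972 genes, 1 of them a member each time, at an unadjusted p below 0.05. The largest differences were 0.97 ± 0.56 for Hyou1, an ER HSP110, at 18 h (adjusted p = 0.933) and -0.78 ± 1.31 for Hspb1 at 4 h. Hyou1 read 3.13 and 3.50 in C57BL6 mock and 2.87 and 3.36 at 18 h, and 2.69 and 3.74 in Balb/c mock and 3.81 and 4.15 at 18 h. Its second probe was above background on 5 of 12 arrays.

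The folding genes around the members were read from 7 further lists of 147 tested genes. At 4 h over both strains limma called 2 of the 147, against 6.73% of all genes, and both were lower (3.8% of all genes): Dnajb4, a J-domain partner of HSP70, by -0.96 ± 0.16, and Htra2, a mitochondrial protease, by -0.61 ± 0.13 (adjusted p = 0.0114 and 0.0298). Dnajb4 read 1.52 and 1.59 in C57BL6 mock against 0.37 and 0.31 at 4 h, and was called in that strain too (-1.22 ± 0.23, 0.0305). By 18 h both C57BL6 arrays lay between those of mock and those of 4 h. With the block 30 of the 147 were called at 4 h, against 23.2% of all genes.

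At 18 h over both strains 7 of the 147 were called, against 9.36% of all genes, with 5 higher and 2 lower. With the block it was 43, against 24.9%. The highest was Slc7a11, the cystine transporter and Atf4 target, with a measured signal 3.37-fold higher at 18 h (limma adjusted p = 0.000252). Slc7a11 was not well above background on any mock array, so this is a ratio to signals not told apart from background. It read -6.72 and -6.52 in C57BL6 mock and -4.31 and -4.28 at 18 h, and -5.43 and -5.31 in Balb/c mock and -3.93 and -4.46 at 18 h. Of the 22 tested Atf4 and Ddit3 target genes it was the 1 called at 18 h over both strains without the block, against 9.36% of all genes. With the block 7 were called, 6 higher and 1 lower, against 24.9% of all genes. The other higher genes were Stt3b, a catalytic subunit of the oligosaccharyltransferase (1.03 ± 0.18), Wfs1, an ER membrane protein (0.62 ± 0.11), Trap1, the mitochondrial HSP90 (0.61 ± 0.15), and St13, an HSP70 partner (0.44 ± 0.11). The lower genes were Hspa2 (-0.75 ± 0.15) and Dnaja4 (-0.63 ± 0.15), both cytosolic.

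Wfs1 was called in C57BL6, with 0.26 and 0.50 in mock and 1.48 and 1.49 at 18 h, and its Balb/c arrays at 18 h (0.60 and 0.46) were near those of mock (0.36 and 0.42). The difference between the strains was not called. None of the 14 genes of the cytosolic chaperonin TRiC and prefoldin was called by limma in any comparison without the block. At 18 h over both strains this stands against 9.36% of all genes. There 11 of 14 were positive with a median of 0.33, and the block called 10 of them, against 24.9% of all genes. Of the 15 further genes of ER-associated degradation none was called by limma at 4 h or 18 h without the block. The shares of all genes over both strains were 6.73% and 9.36%. With the block 1 was called at 4 h and 2 at 18 h over both strains, against 23.2% and 24.9% of all genes. Between the strains 14 of the 147 were called, against 17.6% of all genes, with 6 higher in Balb/c and 8 lower (7.41% and 10.2% of all genes). Fkbp14, an ER prolyl isomerase, was higher by 2.25 ± 0.18 and Cryab, a small heat shock protein, by 1.94 ± 0.17, and both were also called with the replicate block (adjusted p = 0.00173 and 0.00799). Stt3b was lower by -1.04 ± 0.15 and Bag2, a co-chaperone of HSP70, by -1.45 ± 0.35, and Stt3b alone of these was called with the block (0.043).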

How the data were processed

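Total RNA of 12 cultures was labelled with Cy3 and read on 12 one-colour Agilent arrays on 3 slides of 4. Both C57BL6 arrays of 18 h were on slide 3 and both Balb/c mock arrays on slide 1, while the other groups were split over slides. The submitters' processing notes name Agilent Feature Extraction 9.5.1.1, and the deposited scanner files give the processed signal as intensity per the file headers. The deposited value table holds a linear ratio for each probe; over the members its log2 values lay within 0.0042 of the scaled signal divided by the mean of the C57BL6 mock arrays, after centring, so scale and direction are known and the centring of each column is not (column medians 0.936 to 1.132).

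Control spots and outlier spots were left out, log2 intensity was scaled to each array's 75th percentile, and a probe was kept where the scanner software called it above background on both arrays of some group (27383 of 41174). Genes were named through RefSeq accessions and symbols (GRCm38.p6). The brightest probe of a gene was tested in limma 3.58.1 (R 4.3.3, data.table, version 1.17.8) on the 6 group means, with 6 residual degrees of freedom and 10 contrasts, after a check on simulated arrays. Errors are standard errors of the fit.

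Replicate numbers were treated as pairs within a strain: the series text names 2 independent experiments, and deviations of same-numbered arrays correlated at 0.155 to 0.652. The 2 highest values, 0.621 (C57BL6 mock with 4 h) and 0.652 (Balb/c 4 h with 18 h), came from groups whose replicates split over the same slides. Pairing and slide cannot be told apart there, and the other values were 0.155 to 0.499. The members, role groups, lists and motifs were chosen with earlier results of these data known. Members are all accounted for; of the other lists, up to 4 called genes per list and comparison are named. Alternatives were normexp (offset 50), quantile and median scaling, other filters, the deposited ratios, probe means, slide and replicate blocks, each array left out, and fits of only the arrays compared.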

Additional observations from a re-analysis of the deposited data

Results flagged for a closer look

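Of the members, 3 had arrays that moved in opposite directions in the strains, every treated array of a strain lying beyond both of its mock arrays. The share of all genes with this pattern was not counted, so the 3 cannot be set against it. For Dnajb1 at 18 h the strain difference of the change was 0.50 (adjusted p = 0.92), since it read 4.55 and 4.43 in C57BL6 mock against 4.19 and 4.26 at 18 h, and 3.93 and 4.14 in Balb/c mock against 4.27 and 4.28. For Dnajb11 at 18 h it was 0.47 (0.933), and for Edem1 at 4 h it was 0.28, and none of these passed the interaction test of limma. The second Dnajb1 probe, above background on all 12 arrays, read 0.29 in C57BL6 and 0.28 in Balb/c at 18 h, and for the other Edem1 probes the strain difference at 4 h was -0.07 and -0.14, so for these genes the opposite directions rest on 1 probe. Groups of 2 arrays are too small for a check of single outlying arrays.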

How the results depend on the processing

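The main counts of called members were 0 and 2 in C57BL6 (4 h and 18 h), 0 and 1 in Balb/c, 2 and 4 over both strains, 0 for 18 h against 4 h and 4 between strains. With the replicate block they were 5 and 7, 1 and 12, 8 and 13, 7, and 0, and 0 for both strain differences of the change. The shares of all genes called in these 2 fits are given with each comparison above. For the strain differences of the change no gene was called in either. Normexp correction gave 0 at 18 h in C57BL6, 0 at 18 h in Balb/c, 0 and 2 over both strains and 0 between strains. For the same comparisons it called 124, 144, 143, 642 and 502 of 18436 genes. Quantile scaling gave 1 at 18 h in C57BL6 and 2 between strains, against 752 and 3223 of 18436 genes. Median scaling gave 0 at 18 h in C57BL6, 1 at 4 h over both strains and 2 between strains. It called 564, 893 and 2635 of 18436 genes there. Without the background filter the counts were 0, 1 and 2 for these 3 comparisons. The calls over all genes were then 463 of 27669, 786 of 27668 and 2730 of 27668. Keeping only probes above background on all 12 arrays gave 2 at 18 h in Balb/c and 7 over both strains. Of the 14184 genes then tested, 674 and 1729 were called. The deposited ratios gave 1 at 18 h in C57BL6, as did the slide block, which gave 0 between strains, where probe means gave 7. Over all genes the calls were 760 of 18435 for the ratios and 994 and 1047 of 18436 for the slide block. Probe means called 3134 of 18436 between strains. Fits of only the 4 arrays compared gave 0 at 18 h in both strains, where 322 (C57BL6) and 17 (Balb/c) of 18436 genes were called. Leaving out 1 array at a time gave 0 at 18 h in C57BL6, 0 to 1 at 18 h in Balb/c, 0 to 2 at 4 h and 2 to 6 at 18 h over both strains, and 2 to 5 between strains. Edem1 at 18 h over both strains turned from -0.34 to 0.0066 with normexp correction; the cause was not tested. With 2 arrays a group, small changes cannot be resolved.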
